A study of Mus musculus with 8 samples.

Results

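The MEF2 factors and the class IIa histone deacetylases that bind them were followed in RNA sequencing of cultured satellite cells of the mouse, which are the resident stem cells of muscle fibres. The members are the 7 genes Mef2a, Mef2c, Mef2d, Hdac4, Hdac5, Hdac7 and Hdac9, taken by their symbols, with no threshold on measured values, although earlier results of these data were known when the group was proposed. They take 8 of the 39017 rows of the count table, because 2 rows carry the symbol Hdac4. Both groups came from adult Pax3GFP/+ mice, which carry a green fluorescent protein reporter at the Pax3 gene, and the cells were isolated from diaphragm and abdominal muscle. They were seeded at 7500 cells per 35 mm plate and cultured for 4 days with sal003 at 10 µM or with its vehicle DMSO, and there were 4 libraries of each. The labels give the dose as 10 µM in most places and as 10 mM in the treatment protocol, and 10 µM is used here. Sal003 blocks the removal of phosphate from the translation factor eIF2α. The study's title concerns translation of Tacc3 in expanding satellite cells, and the comparison described here asks how transcripts of the MEF2 pathway differed between the treatments.

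MEF2 proteins are transcription factors of the MADS-box family that work with the MyoD family to switch on genes of differentiating muscle. Class IIa deacetylases bind MEF2 on DNA and hold its targets silent, and kinases such as those dependent on calcium and calmodulin phosphorylate the deacetylases, which then bind 14-3-3 proteins and leave the nucleus through the exportin encoded by Xpo1. The transcripts counted here report on neither step, since the position and phosphorylation of the proteins were not measured.

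Library totals ran from 32753929 to 40234107 counts. DMSO replicate 2 stood apart, with 14437 genes detected against 16561 to 18076 in the other libraries, so results are also given without it. Markers of the labelled cell type were present. Myod1, in CPM (counts scaled to the size of each library by TMM), stood at 896 ± 85.8 in DMSO and 892 ± 52.3 in sal003, and Pax7 at 72.1 ± 6.74 and 97.2 ± 2.54 CPM (SD, n = 4 in each group). Of the 8 myoblast and satellite cell markers, all tested, 1 rose (Pax7) and 3 fell, which were Des (log2 fold change -1.33 ± 0.08), Cdh15 (-0.92 ± 0.10) and Itga7 (-0.56 ± 0.09). The other 4, Myod1, Pax3, Myf5 and Vcam1, were not called. By the same edgeR test, 10.6% of all tested genes were higher and 12.2% lower in sal003. The markers summed to 4260 to 4911 CPM in DMSO and 2490 to 2743 CPM in sal003. Des made up the largest part, at 2941 ± 224 and 1171 ± 40.7 CPM, and the lower sum mostly reflects Des. Whether each replicate is an animal or culture of its own is not in the labels, and the p-values therefore cover the spread among these libraries and no more.

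Promoter sequences from RefSeq (GRCm38.p6, which is mm10) are shown for the members whose window held a match to CTA, any 4 bases and TAG, the outer letters of the site that MEF2 binds, and for Mef2c, the MEF2 gene with the largest change. The motifs searched were this one, the MEF2 consensus, which overlaps it, CAGCTG, a core that myogenic helix-loop-helix factors bind, and CATTCC, the core bound by TEAD factors. Both strands were read in 300 bases around each start site, and the members had 13 such windows. Matches are in capitals below, and positions are counted from the start site as +1. Except for Mef2a, where 30 bases from -12 to +18 are given, each line is the 250 bases before the start site.
Mef2a, chr7:67372841-67372870, minus strand: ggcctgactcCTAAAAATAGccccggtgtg
Hdac5, chr11:102230173-102230422, minus strand: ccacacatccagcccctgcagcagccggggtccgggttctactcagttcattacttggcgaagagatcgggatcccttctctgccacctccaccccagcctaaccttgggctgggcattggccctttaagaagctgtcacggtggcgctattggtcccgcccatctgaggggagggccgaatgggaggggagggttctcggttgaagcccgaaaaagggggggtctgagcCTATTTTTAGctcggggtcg
Hdac9, chr12:34528890-34529139, minus strand: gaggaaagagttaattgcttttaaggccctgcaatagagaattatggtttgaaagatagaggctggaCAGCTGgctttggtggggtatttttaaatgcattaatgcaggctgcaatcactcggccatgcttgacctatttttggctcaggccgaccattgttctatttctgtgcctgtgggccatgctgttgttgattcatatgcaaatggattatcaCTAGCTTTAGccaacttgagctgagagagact
Mef2c, chr13:83503784-83504033, plus strand: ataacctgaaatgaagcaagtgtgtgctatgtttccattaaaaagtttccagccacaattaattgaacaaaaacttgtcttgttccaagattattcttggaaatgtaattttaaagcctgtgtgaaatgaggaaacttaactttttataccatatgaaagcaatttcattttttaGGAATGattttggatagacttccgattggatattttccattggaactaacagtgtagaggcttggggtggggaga

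The Mef2a match, CTAAAAATAG, covered positions -2 to 8, and the Hdac5 match, CTATTTTTAG, lay at -20 to -11. Both also met the MEF2 consensus, which 3.19% of all 32851 promoter windows held. The Hdac9 match, CTAGCTTTAG at -32 to -23, met only the form with any 4 bases between CTA and TAG, found in 3.69% of all windows, and belongs to the inner of the 2 start sites listed for that gene. The same Hdac9 window held CAGCTG at -183 to -178, and the window of the outer start site held it at -89 to -84, while 16.3% of all windows had this core. In the Mef2c window shown, GGAATG, the reverse complement of CATTCC, lay at -75 to -70, and CATTCC on either strand was found in 14.7% of all windows. The other 2 windows of Mef2c held none of the motifs searched, and neither did the windows of Mef2d and Hdac4. Hdac7 had CAGCTG at 11 to 16 and at 19 to 24 and CATTCC at -240 to -235 in 1 of its 4 windows, and GGAATG at -82 to -77 in another. These are matches of letters, and binding was not measured. Counts per gene cannot tell which start site was used.

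Of the 8 rows, all passed the filter on counts, and 6 passed the test between the treatments: Mef2a, Mef2c, Mef2d, Hdac5 and Hdac9 fell in sal003, Hdac7 rose, and neither Hdac4 row was called. Over all 15816 genes tested, 12.2% were lower and 10.6% higher in sal003 by the same rule, an edgeR adjusted p below 0.05, which makes 22.7% in either direction. At each of these 6 members the sal003 and DMSO libraries were fully separate, as they were at 26.8% of tested genes. At the 5 genes that fell sal003 lay wholly below DMSO (13.7% of tested genes), and at Hdac7 wholly above (13.1%). The median log2 fold change of all tested genes was -0.00338.

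**Figure D1:**
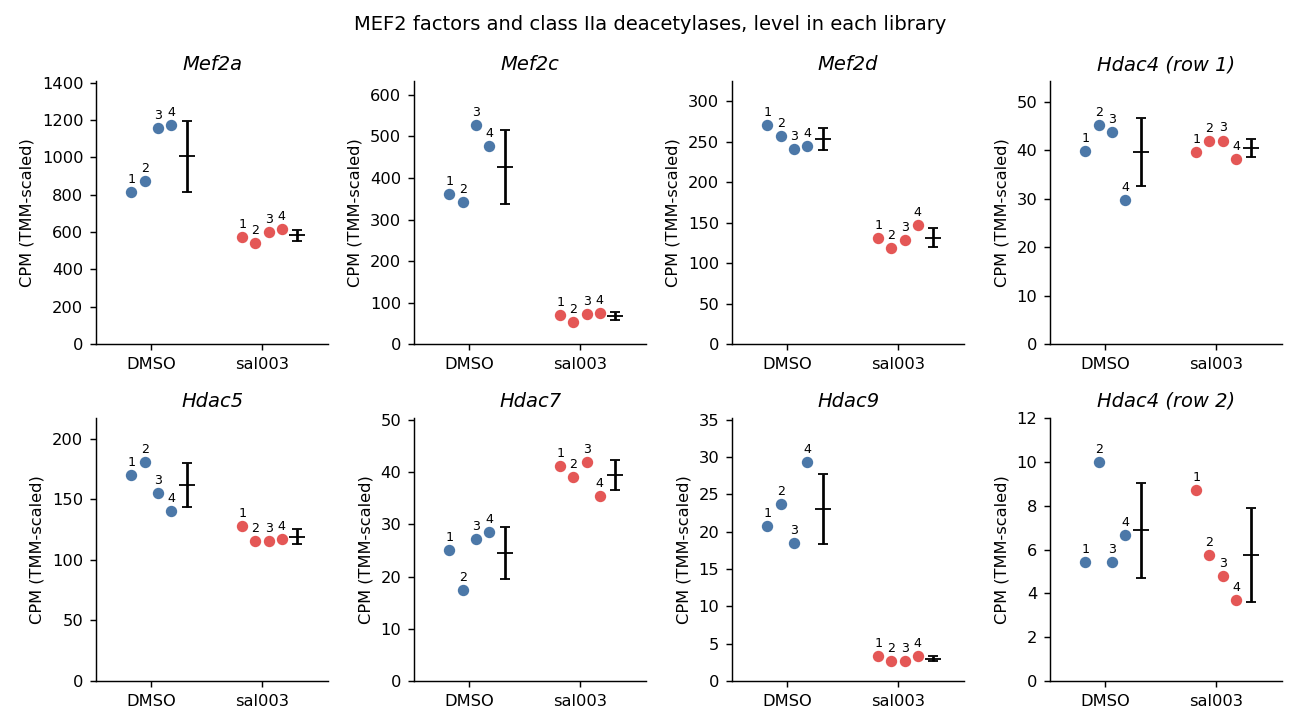
Level of each member in each library, in CPM on a linear axis from 0; points are libraries numbered by replicate, and bars are the mean ± SD of 4. Sal003 libraries lie wholly below DMSO for Mef2a, Mef2c, Mef2d, Hdac5 and Hdac9 and wholly above for Hdac7, while both Hdac4 rows overlap (row 1 is ENSMUSG00000026313, row 2 ENSMUSG00000073617).

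Mef2c encodes the MEF2 factor best known for the assembly of sarcomeres in developing muscle (chromosome 13, 83504034 to 83667080, plus strand of mm10). It stood at 361, 342, 528 and 476 CPM in DMSO replicates 1 to 4. In sal003 replicates 1 to 4 it stood at 70.2, 53.3, 72.9 and 76.0 CPM. The lowest DMSO library was thus far above the highest sal003 library. The group means were 427 ± 89.6 and 68.1 ± 10.1 CPM (SD, n = 4), a level 6.27-fold lower in sal003, with a log2 fold change of -2.65 and an SE of 0.15 (adjusted p by edgeR = 1.87e-08). By estimate it was number 253 from the lowest of the tested genes.

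Mef2a encodes a MEF2 factor that most tissues make (chromosome 7, 67231163 to 67372858, minus strand). Its DMSO libraries held 814, 874, 1159 and 1174 CPM and its sal003 libraries 572, 543, 599 and 615 CPM. All sal003 values were below all DMSO values, although replicates 1 and 2 of DMSO were nearer to them than replicates 3 and 4. The means were 1005 ± 188 and 582 ± 31.3 CPM, a level 1.73-fold lower, and the log2 fold change was -0.79 ± 0.11 (adjusted p by edgeR = 8.24e-05).

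Mef2d, whose product in muscle exists as a ubiquitous and a muscle-specific splice form, lies on chromosome 3 (88142372 to 88172086, plus strand). It had 270.5, 257, 240.5 and 245 CPM in DMSO and 131.5, 118, 129 and 147 CPM in sal003. Here the DMSO libraries were close together. The means of 253 ± 13.5 and 131 ± 11.8 CPM differed 1.93-fold, or by -0.95 ± 0.09 on the log2 scale (adjusted p by edgeR = 1.37e-06). The counts cover the gene as a whole, so splice forms were not told apart. The fourth family gene, Mef2b, had 4 counts in sal003 replicate 4 and 0 in the other 7 libraries. There, 0 allows at most 0.0711 to 0.0958 CPM (3 counts, counting error only). This limit takes counts as independent and may be too low, since 75.6% to 83.4% of counts from 1 to 20 were even.

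Within the MEF2 family the balance of transcripts also differed, which a ratio of counts inside each library shows without any scaling. The ratio of Mef2c to Mef2a counts was 0.391 to 0.455 in DMSO and 0.0981 to 0.124 in sal003, and the groups did not overlap. The ratio of Mef2c to Mef2d counts was 1.33 to 2.19 in DMSO and 0.450 to 0.567 in sal003, again without overlap. The ratio of Mef2d to Mef2a counts, 0.208 to 0.332 in DMSO and 0.215 to 0.239 in sal003, did overlap. These ratios were not tested.

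Levels of different genes were compared per kilobase of exon. In CPM per kilobase, Mef2a stood at 68.5 ± 12.8 in DMSO and 39.7 ± 2.13 in sal003, Mef2d at 42.3 ± 2.25 and 21.9 ± 1.97, and Mef2c at 27.2 ± 5.70 and 4.33 ± 0.645 (SD, n = 4). As shares of the summed MEF2 level, Mef2c made up 19.5% ± 1.94 in DMSO and 6.55% ± 0.610 in sal003. Mef2a made up 49.3% ± 3.67 and 60.2% ± 1.26, and Mef2d 31.1% ± 5.20 and 33.2% ± 1.0. The order of Mef2c and Mef2d in DMSO depended on the length used: by the longest coding transcript, Mef2c took 22.8% and Mef2d 16.2%. The lower share of Mef2c in sal003 was seen by both lengths.

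**Figure D2:**
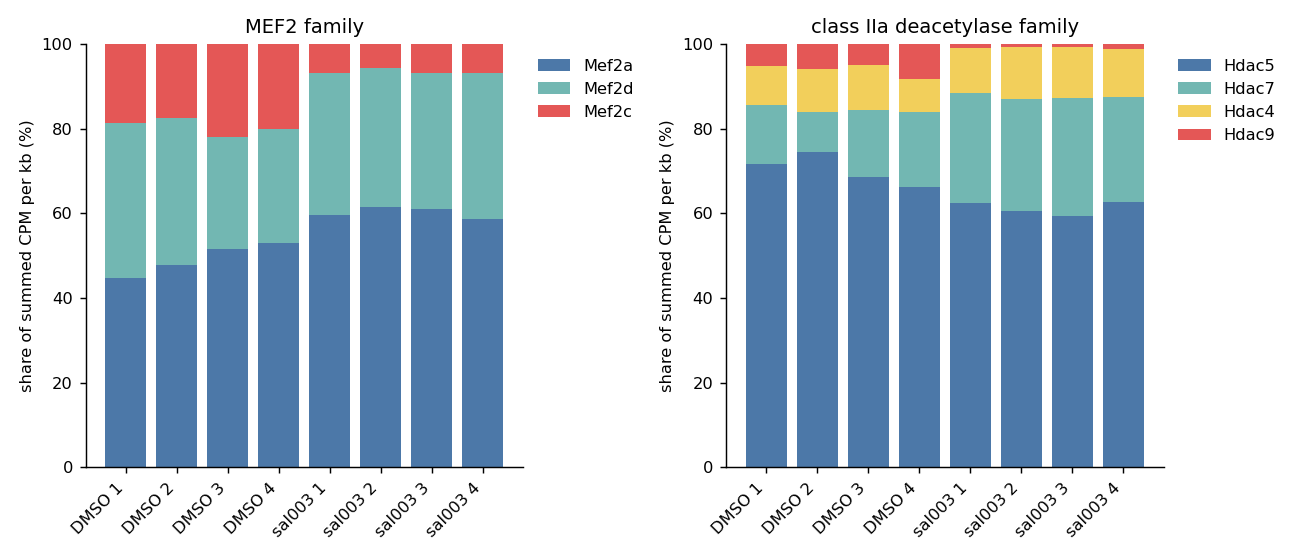
Share of each gene in the summed CPM per kilobase of exon of its family (%), 1 bar per library; Mef2b and the second Hdac4 row are left out. Mef2c takes 17.5% to 22.0% of the MEF2 level in DMSO and 5.64% to 6.93% in sal003, and Hdac9 takes 4.90% to 8.33% and 0.816% to 1.08% of the deacetylase level.

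Among the deacetylases Hdac9 had the largest change. Hdac9 is made as full-length forms and as a short form without the catalytic domain, MITR, and it has been described as a gene that MEF2 itself activates (chromosome 12, 34047580 to 34917095, minus strand). Its DMSO libraries held 20.8, 23.7, 18.5 and 29.4 CPM and its sal003 libraries 3.33, 2.61, 2.71 and 3.35 CPM. In counts, this was 629 to 1117 per library in DMSO and 108 to 136 in sal003. The means were 23.1 ± 4.71 and 3.0 ± 0.395 CPM, a level 7.69-fold lower, and the log2 fold change was -2.94 ± 0.24 (adjusted p by edgeR = 2.79e-07). It was number 163 from the lowest estimate. Short and full-length forms are summed in these counts.

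Hdac5, a deacetylase whose export from the nucleus of myoblasts accompanies their differentiation, was the most abundant of the family per kilobase, at 18.4 ± 2.05 CPM per kilobase in DMSO and 13.6 ± 0.693 in sal003 (chromosome 11, 102194432 to 102230166, minus strand). It had 171, 181, 155 and 140.1 CPM in DMSO and 128, 116, 116 and 117 CPM in sal003. The groups were separate but lay close to each other. The level was 1.36-fold lower in sal003, a log2 fold change of -0.44 ± 0.10 (adjusted p by edgeR = 0.00389).

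Hdac7, known for its role in endothelial cells and developing T cells and also made in myoblasts, was the member that rose (chromosome 15, 97792664 to 97844502, minus strand). DMSO libraries held 25.1, 17.4, 27.2 and 28.5 CPM and sal003 libraries 41.2, 39.1, 42.0 and 35.5 CPM. DMSO replicate 2 was the lowest library, and the other DMSO libraries were still below each sal003 library. The means were 24.5 ± 4.97 and 39.5 ± 2.91 CPM, a level 1.61-fold higher, and the log2 fold change was 0.69 ± 0.17 (adjusted p by edgeR = 0.00674). Without DMSO replicate 2 the log2 fold change was 0.56 ± 0.14 (adjusted p = 0.00388).

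Hdac4, which carries the signal of lost nerve supply in muscle fibres, was not called. The row with identifier ENSMUSG00000026313 (chromosome 1, 91928779 to 92195699, minus strand) had 39.7, 45.2, 43.8 and 29.8 CPM in DMSO and 39.6, 41.8, 42.0 and 38.2 CPM in sal003. The sal003 libraries fell inside the range of the DMSO libraries. On the log2 scale the difference was 0.03 ± 0.15, with a 95% interval from -0.28 to 0.34 (adjusted p by edgeR = 0.933). The second row, ENSMUSG00000073617, held 143 to 356 counts per library and is absent from the GENCODE M21 annotation used, so its place in the genome was not read. Its estimate was -0.26 ± 0.36 on the log2 scale (adjusted p by edgeR = 0.704), and its libraries overlapped between the groups. With both rows summed, an alternative added after seeing the data, the estimate was -0.01 (adjusted p = 0.975).

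**Figure D3:**
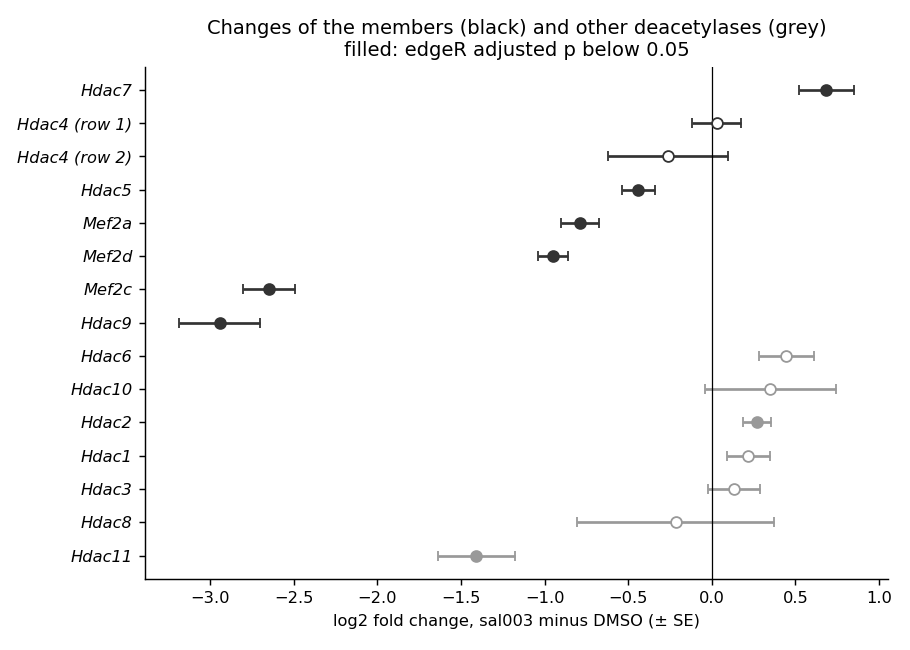
Log2 fold change of sal003 against DMSO, with its SE, for the 8 member rows (black) and the other deacetylases tested (grey); filled points have an edgeR adjusted p below 0.05. Hdac9 and Mef2c lie below -2.5, Mef2a and Mef2d between -1 and -0.5, and Hdac7 at 0.69.

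The balance of the deacetylases moved as well. Hdac9 made up 6.07% ± 1.55 of the summed level per kilobase in DMSO and 0.922% ± 0.123 in sal003, and Hdac7 14% ± 3.53 and 26.3% ± 1.31 (SD, n = 4). Hdac5 made up 70.3% ± 3.59 and 61.2% ± 1.6, and Hdac4 9.55% ± 1.31 and 11.5% ± 0.651. Per kilobase in DMSO, Hdac7 (3.63 ± 0.735) was above Hdac4 (2.51 ± 0.440) on average and in replicates 1, 3 and 4. In DMSO replicate 2 Hdac7 was below Hdac4 (2.57 against 2.86). In sal003 Hdac7 (5.84 ± 0.431) was above Hdac4 (2.56 ± 0.115) in every library. The ratio of Hdac9 to Hdac7 counts was 0.681 to 1.36 in DMSO and 0.0644 to 0.0943 in sal003. The ratio of Hdac7 to Hdac4 counts, 0.385 to 0.957 in DMSO and 0.928 to 1.04 in sal003, overlapped between the groups. Hdac4 in these shares and ratios is the row ENSMUSG00000026313 alone. The overlap rests on DMSO replicate 4, with 1083 Hdac7 and 1132 Hdac4 counts. It does not remain when the second Hdac4 row, with 253 counts in that library, is added in every library.

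Each of the 6 calls on members was also made whichever of the 8 libraries was left out. With DMSO replicate 2 removed, the log2 fold changes were -2.73 for Mef2c, -0.84 for Mef2a, -0.93 for Mef2d, -2.92 for Hdac9 and -0.37 for Hdac5. When the test asked for more than a 1.5-fold change, Mef2c, Hdac9 and Mef2d passed (adjusted p by edgeR for Mef2d = 0.00290), while Mef2a (adjusted p = 0.145), Hdac7 (0.668) and Hdac5 (1) did not.

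Some exons of members are shared with other annotated genes, and whether the counting used strand is not given in the sources used here. Exons of Mef2a overlap those of Lysmd4 on the opposite strand by 302 bases, where Lysmd4 had at most 236 counts. Exons of Hdac7 overlap those of Slc48a1 on the opposite strand by 29 bases, and Slc48a1 reached 1315 counts. For Hdac4, Hdac5 and Mef2d the genes with exonic overlap had at most 82 counts, and Mef2c and Hdac9 had no exonic overlap.

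The deacetylases outside class IIa include the class I enzymes found with corepressors and Hdac6 and Hdac10 of class IIb. Of 7 tested, 1 rose and 1 fell, where 10.6% of all tested genes were higher and 12.2% lower. Hdac11, the class IV enzyme, fell from 18.5 ± 3.88 to 6.97 ± 0.391 CPM (-1.41 ± 0.23 on the log2 scale, adjusted p by edgeR = 0.000285). Hdac2, a class I enzyme, rose from 192 ± 12.1 to 232 ± 14.5 CPM (0.27 ± 0.09, adjusted p = 0.0320), but it no longer passed when DMSO replicate 1 (adjusted p = 0.0722) or sal003 replicate 1 (0.0888), 2 (0.113) or 4 (0.0706) was removed. Hdac6, of class IIb, had 0.45 ± 0.17 (adjusted p = 0.0682) and passed once DMSO replicate 3 was removed (0.0492). Hdac1, Hdac3, Hdac8 and Hdac10 had log2 fold changes of 0.22, 0.13, -0.22 and 0.35 and did not pass.

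Kinases that phosphorylate class IIa deacetylases differed in both directions: of 20 listed, 19 could be tested, 1 rose and 5 fell, with a median log2 fold change of -0.22. These 6 of 19 stand beside 22.7% of all tested genes. Prkaa2, a catalytic subunit of AMP-activated kinase, fell from 29.99 ± 5.80 to 10.3 ± 2.08 CPM (-1.55 ± 0.21). Camk2a, the alpha isoform of calcium/calmodulin kinase II, fell from 18.6 ± 2.26 to 5.07 ± 3.85 CPM (-1.87 ± 0.47, adjusted p by edgeR = 0.0112). Of the protein kinase D genes, Prkd1 fell (-0.98 ± 0.19) and Prkd3 rose (0.51 ± 0.10). Sik1, a salt-inducible kinase that phosphorylates class IIa deacetylases in muscle, went from 374 ± 34.5 to 266.5 ± 14.6 CPM (-0.49 ± 0.09), and Mark4 had -0.51 ± 0.10. Without DMSO replicate 2, 2 kinases were higher and 6 lower, and the list's median was -0.02.

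In the export step, 3 of 8 genes rose and 1 fell, where 10.6% of all tested genes were higher and 12.2% lower. Xpo1, the exportin, went from 260 ± 44.6 to 513 ± 19.7 CPM (0.98 ± 0.11, adjusted p by edgeR = 5.71e-06). Of the 14-3-3 genes, Ywhaq (0.67 ± 0.14) and Ywhah (0.39 ± 0.10) rose and Ywhag fell (-0.46 ± 0.10).

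Among 23 partners and regulators of MEF2, 1 rose and 4 fell, and the median log2 fold change was 0.01. These 5 of 23 are near the 22.7% called among all tested genes. Tead4, a TEAD factor of muscle genes, went from 217 ± 31.0 to 115 ± 13.4 CPM (-0.91 ± 0.11). The coactivator of MEF2 Mamstr had -0.52 ± 0.14 (adjusted p by edgeR = 0.0122), and its call was lost without DMSO replicate 1 (adjusted p = 0.0534). Smarcd3, a muscle subunit of the SWI/SNF remodeller, had -0.37 ± 0.09, and Vgll2, a TEAD cofactor, -0.64 ± 0.20 (adjusted p = 0.0304). Vgll2 no longer passed with DMSO replicate 1 (0.085) or 3 (0.107) or with sal003 replicate 2 (0.108) or 4 (0.0851) removed. Nfatc1, a factor activated by calcineurin, rose (0.48 ± 0.12). Without DMSO replicate 2, 3 of the 23 were higher and 7 lower, and without DMSO replicate 1, 2 were higher and 2 lower. The median of these genes stayed near 0, from -0.05 to 0.08, whichever library was left out.

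Of 22 genes described as targets of MEF2, all were tested, 0 rose and 19 fell, with a median log2 fold change of -1.76. Over all tested genes, 12.2% were lower. Myom1 and Myom2, proteins of the M-band, had -2.43 ± 0.09 and -2.63 ± 0.14, and Lmod3, a nucleator of thin filaments, -2.46 ± 0.13. The myogenic factor Myog had -1.60 ± 0.09, and Des, which encodes the intermediate filament desmin, -1.33 ± 0.08. Klf2 (-0.77 ± 0.47), Nr4a1 (-1.66 ± 0.63) and the glucose transporter gene Slc2a4 (-2.36 ± 1.12, adjusted p by edgeR = 0.171) did not pass. Without DMSO replicate 2, Slc2a4 passed (adjusted p = 0.000219) and 20 of 22 fell.

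Genes described in the pathway that Hdac4 drives after loss of nerve supply were lower, although Hdac4 itself was not called. These were cultured cells, and nerve supply was not part of the comparison. Of 10 genes listed, 9 were tested, 9 fell and 0 rose, with a median of -1.31, where 12.2% of all tested genes were lower. The list shares Myog with the MEF2 targets and with the markers of muscle differentiation. The acetylcholine receptor subunits Chrng (-1.81 ± 0.10), Chrnd (-1.08 ± 0.08) and Chrna1 (-0.90 ± 0.07) fell, as did Gadd45a (-1.43 ± 0.12). The corepressor gene Dach2, which links Hdac4 to Myog in that pathway, had 0 counts in all 8 libraries.

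**Figure D4:**
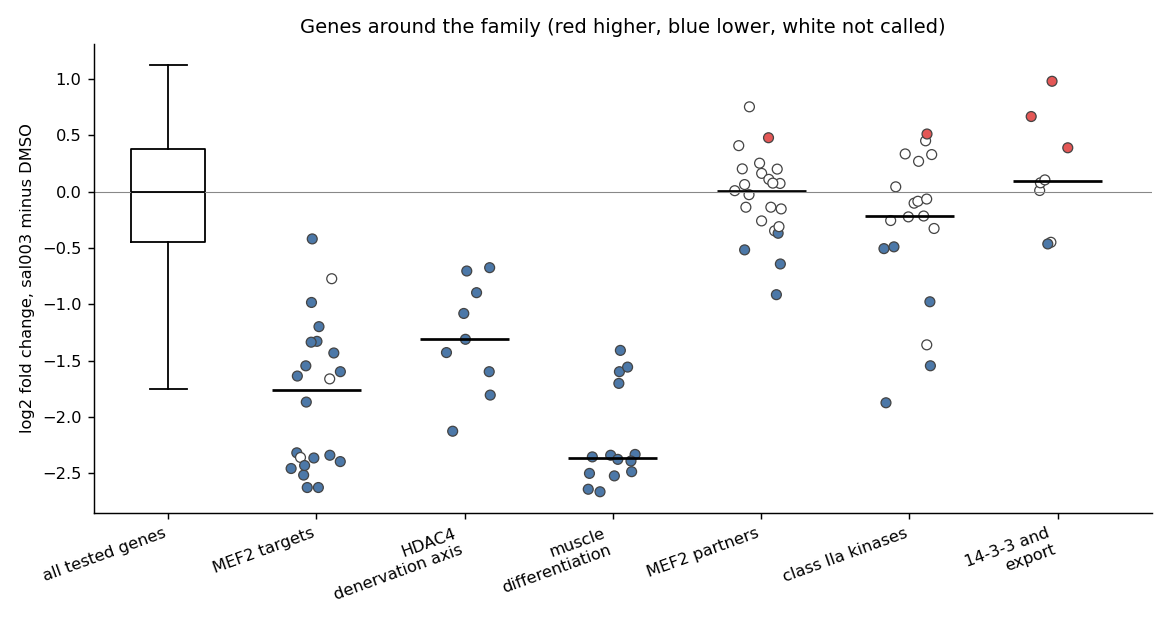
Log2 fold change of sal003 against DMSO for each tested gene of 6 lists (red higher, blue lower, white not called), with the median as a line, beside all tested genes (box, quartiles; whiskers, 5th to 95th percentile). The medians are -1.76 for MEF2 targets, -1.31 for the Hdac4 pathway and -2.37 for differentiation markers, against -0.00338 for all genes.

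Markers of muscle differentiation moved with the members that fell. Against 12.2% of all tested genes, 14 of 14 markers fell, with a median of -2.37. Their summed level was 60940 to 88960 CPM in DMSO and 18180 to 21040 CPM in sal003. The list shares 2 genes with the MEF2 targets, Ckm and Myog. Other listed targets, such as Myom1, Myom2 and Lmod3, also encode proteins of the sarcomere, so the 2 lists are not separate readings. The part of a smaller share of differentiated cells in the results on members was not tested, and in these bulk samples fewer cells of a type and less RNA per cell cannot be told apart.

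Markers of other cell types were read as lists, beside 10.6% of all tested genes higher and 12.2% lower in sal003. Mef2c and Hdac7 are also made by endothelial and blood cells. Of 8 endothelial markers, 4 were tested and 0 called. Cldn5, Emcn and Tie1 were at 0 in all libraries, and the list summed to 0.890 to 5.05 CPM in DMSO and 3.43 to 6.44 CPM in sal003. Of 8 immune markers, 2 were tested and 0 called. Ptprc, Cd3e, Lyz2 and Adgre1 were at 0, and the sum was 2.37 to 5.82 CPM in DMSO and 2.16 to 4.56 CPM in sal003. Itgam had 36 to 90 counts in DMSO and 0 to 12 in sal003 (-3.68 ± 1.45, adjusted p by edgeR = 0.0857). Its sal003 libraries lay wholly below DMSO, as at 13.7% of tested genes. Of 8 fibro-adipogenic markers 4 were tested and 1 rose, Fbn1 (0.37 ± 0.09), while Col3a1 stood at 101 ± 8.93 and 106 ± 9.34 CPM. Dcn, Lum and Dpt were at 0, and the list had a sum of 317 to 368 CPM in DMSO and 385 to 425 CPM in sal003. Of 8 smooth muscle and pericyte markers 6 were tested and 4 fell, with a sum of 4476 to 4905 CPM in DMSO and 1685 to 1925 CPM in sal003. Most of that sum came from Des and Acta2, which myoblasts also make, and both fell. Abcc9, a subunit of potassium channels, fell from 77.2 ± 3.83 to 15.2 ± 1.14 CPM, and the pericyte proteoglycan gene Cspg4 from 197 ± 32.6 to 149 ± 14 CPM. Cspg4 no longer passed with sal003 replicate 1 (adjusted p by edgeR = 0.0692) or 2 (0.0677) removed. Rgs5 (-1.44 ± 1.67, adjusted p by edgeR = 0.636) and Pdgfrb (-0.92 ± 0.47, adjusted p = 0.1965) were tested and not called. Pdgfrb passed once DMSO replicate 2 was removed (0.00875). Myh11 and Kcnj8 were at or near 0. Of 6 Schwann cell markers 3 were tested and 1 fell, Ngfr, from 134 ± 23.3 to 78.1 ± 4.70 CPM (-0.78 ± 0.12), with S100b at 0 and a sum of 119 to 166 CPM in DMSO and 77.5 to 90.2 CPM in sal003. The part of any of these cell types in the results on members was not tested.

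The genes most like each called member across the 8 libraries were found by the root-mean-square difference of centred log2 CPM. The candidates were 7334 named genes with a mean log2 CPM at or above the median of tested genes. Hdac9 itself lay below that median (percentile 47.8), so genes at its own level were not among its candidates. The genes found were chosen by their likeness, so their own changes are a description. Nearest to Mef2c were Lmod3 (difference 0.104), which is also among the listed MEF2 targets, the kinase gene Dclk1 (0.134) and the actin-binding LIM protein gene Ablim3 (0.171). Nearest to Hdac9 were Fst, which encodes follistatin (0.201), Adck3 (0.214) and the LIM protein gene Fhl1 (0.215). Nearest to Mef2d were Pttg1ip (0.0263), the kinase gene Hipk3 (0.0509) and the phosphatase gene Dusp3 (0.0534). Nearest to Mef2a, all at 0.101, were Stk17b, Cdh2, which encodes N-cadherin, and the collagen hydroxylase gene P4ha1. Nearest to Hdac5 were Ddb1 (0.0512), March6 (0.0559) and Extl3 (0.0573), and nearest to Hdac7 were Arhgap21 (0.0505), the calmodulin gene Calm2 (0.0683) and Rrp15 (0.0762).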

How the data were processed

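The authors deposited 1 table of raw counts per gene over exons, with 1 column per library, all 8 of which were matched to samples by name. The tools and build named in the submitters' processing notes are mm10, featureCounts 1.4.4, STAR 2.3.0e and Trimmomatic 0.32. How strand, overlapping genes and multiply aligned reads were counted is not given in the sources used here. Of counts from 1 to 20, 75.6% to 83.4% per library were even. Per the labels' protocols, RNA was depleted of ribosomal and mitochondrial RNA and stranded libraries were made.

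In R 4.3.3 with edgeR 4.0.16, genes were kept by filterByExpr (minimum count 10, minimum total 15), libraries scaled by TMM and sal003 compared with DMSO by the robust quasi-likelihood test, two-sided, with Benjamini-Hochberg adjustment over 15816 genes. The SE is the log2 fold change divided by the square root of F. Replicates differed far beyond counting noise (chi-square per degree of freedom at least 24.3), so none was treated as a duplicate.

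Lengths and positions come from GENCODE M21, which held 37607 of the 39017 identifiers (96.4%). Mymk, Mymx and Adgre1 were matched by identifier. Members and lists were chosen with earlier results of these data known, so lists are described by counts and medians, with no set test. All members are named. Of each context list, genes past the threshold are named in order of p, up to 5 a direction, but the text gives only part of them. The other deacetylases are all named, as are the 3 genes most like each called member. Klf2, Nr4a1, Slc2a4 and Dach2, as the members of their lists that did not pass or were not tested, and the cell type markers were named after their values were seen. Alternatives were other scalings (DESeq2 size factors, upper quartile), filters and thresholds, DESeq2 1.42.0, limma-voom (limma 3.58.1), halved counts, removal of the 20 most abundant and the mitochondrial genes, a replicate block and leaving out each library. Motif and most-alike searches are descriptions.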

Additional observations from a re-analysis of the deposited data

Results flagged for a closer look

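Of 46 groups of 4 libraries examined (CPM of the members and other deacetylases, and the members' family shares), 4 had 1 library far from the other 3, where chance gives about 1 in 20. In sal003, Hdac5 was highest in 1 library at 128 CPM, with the other 3 between 116 and 117 CPM. Hdac11 was lowest in 1 sal003 library at 6.38 CPM. The share of Mef2c in the MEF2 level was lowest in 1 sal003 library at 5.63%. Mef2b was at 0.103 CPM in 1 sal003 library and at 0 in the other 3, which is 4 counts.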

How the results depend on the processing

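The calls on Mef2c, Mef2d and Hdac9 held in all 20 alternatives. Those on Mef2a, Hdac5 and Hdac7 held in 19 of 20 and were lost only against a change of at least 1.5-fold, which asks for a larger change. No member changed direction under another scaling. The Hdac4 estimate, near 0, turned to -0.01097 with the filter of 10 CPM in 4 libraries and to -0.0108 with its 2 rows summed, and ran from -0.0710 (without DMSO replicate 4) to 0.111 (without DMSO replicate 2) when 1 library was left out. It passed in none of its alternatives. The second Hdac4 row had no value under that filter or when summed. Over all genes, 984 were higher at an adjusted p below 0.01, and against 1.5-fold 266 were higher and 737 lower, both stricter by construction. Leaving out 1 library gave 1270 to 2219 higher and 1612 to 2252 lower. The replicate block gave 1660 higher and 1770 lower and changed no call on a member. Same-numbered libraries did not deviate together (correlations -0.00531 to 0.0354, with 2 of 4 best with their own number), so the numbers were not taken as pairs. With the longest coding transcript as length, the shares were 61.0% (DMSO) and 75.0% (sal003) for Mef2a, 22.8% and 7.70% for Mef2c, and 16.2% and 17.3% for Mef2d, and in sal003 12.7% for Hdac4 and 23.8% for Hdac7, because exon unions and single transcripts differ in length by gene. Counting error limits Hdac9 in sal003, at 108 to 136 counts, and the second Hdac4 row.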

Other observations

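Within DMSO, the levels of Mef2a and Mef2c were lower in replicates 1 and 2 (814 and 874 CPM for Mef2a, 361 and 342 CPM for Mef2c) than in replicates 3 and 4 (1159 and 1174 CPM, 528 and 476 CPM). The summed level of the 14 differentiation markers was 63240 and 60940 CPM in replicates 1 and 2 and 88960 and 74370 CPM in replicates 3 and 4, and most of that sum is the titin gene Ttn, which was also lower in replicates 1 and 2. Neb followed that order as well, with 6327 and 4399 CPM in replicates 1 and 2 and 8919 and 7671 CPM in replicates 3 and 4. Some markers of the list did not follow that order: Myog stood at 2815, 2873, 2487 and 2363 CPM and Acta1 at 5708, 5935, 5801 and 5156 CPM. Among the members Mef2d did not follow it, with 270.5 and 257 CPM against 240.5 and 245 CPM, and Hdac9 was highest in replicate 4 (29.4 CPM) and lowest in replicate 3 (18.5 CPM). The 4 libraries are replicates of 1 group, and the order was noticed after their values were seen.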
